A study of Homo sapiens with 6 samples.

Results

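Ferritin stores iron and heme oxygenase 1 releases it from heme, and the 3 genes described here are FTH1 and FTL, which encode the ferritin heavy and light chains, and HMOX1, which encodes heme oxygenase 1. They are the rows of the authors' deposited table that carry these symbols, 3 of 6018 listed genes. Set beside them are the 11 listed rows named as FTH1 pseudogenes and the 3 listed rows named as FTL pseudogenes, because reads can be divided among near-identical copies. The 3 genes were chosen with their fold changes in this same comparison known, so every fold change given for them is a description and supports no further statement.

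The series profiled the human prostate cancer line C4-2B, which descends from LNCaP by way of C4-2, by bulk RNA sequencing with 50-base single-end reads. The abiraterone-selected subline (3 libraries, passage 15 to 18) was grown through 1 to 20 µM of this inhibitor of androgen synthesis for at least 6 months and then held in 5 µM, and the parental line (3 libraries, passage 0) was carried in parallel in 1% DMSO. Both lines grew in RPMI 1640 with 10% fetal bovine serum, and a dose of 10 µM before RNA extraction is mentioned in a sentence that does not settle which line received it. The subline is 1 selected population compared with 1 parent, and no label says whether its 3 libraries were grown as separate cultures. The listed errors and p-values then measure only the spread between libraries, which may be technical.

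The table compares a condition C with a condition V, and its header reads C as control and V as vehicle without tying either to a cell line. In this series the letter V stands in the titles of the parental line's libraries. If C and V are the groups of this series, C would then be the selected subline by elimination, which goes against the word control in the header. Directions are therefore given as C or V throughout and not as selected or parental. The table holds 0 columns per library: it gives a mean of normalised counts over all samples, a log2 fold change of C over V and its standard error, so no value per library can be shown, no depth per library is known and no test across libraries was possible. A negative log2 fold change is higher in V. Genes with a listed adjusted p under 0.05 (the authors' DESeq2 Wald test with Benjamini-Hochberg adjustment) are named called here. Levels in C and V are not listed; they were worked out from the mean and the fold change together, taking both sides to have equally many libraries, and they have no error of their own.

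As background, ferritin is a hollow shell built of heavy and light chains in varying proportion. The heavy chain oxidises ferrous iron as it enters, and the light chain helps the mineral core to form. Heme oxygenase 1 is the inducible enzyme that opens the heme ring, giving biliverdin, carbon monoxide and ferrous iron. Transcription of all 3 genes is induced by NRF2, the factor released from KEAP1 under oxidative or electrophilic stress, and held down by the heme-sensing repressor BACH1. The ferritin messages have a further control that HMOX1 is not known for: an iron responsive element in the 5′ UTR, a hairpin to which the iron regulatory proteins IRP1 and IRP2 bind when iron is scarce, blocking translation.

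The hairpin sites are shown because they are a feature of FTH1 and FTL that the choice of genes did not use. Each was located in the 5′ UTR of the main message in GENCODE release 29 (GRCh38) by a C, then any 5 bases, then the loop letters CAGTGN, read on the message strand only. The FTH1 site lies in the first exon at chr11:61967574-61967603 on the minus strand, bases 58 to 87 of the 1229-base message. The FTL site lies in the first exon at chr19:48965334-48965363 on the plus strand, bases 34 to 63 of the 878-base message. Capitals mark the loop, of which the motif fixes all but the last base.
FTH1: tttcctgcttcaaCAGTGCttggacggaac
FTL: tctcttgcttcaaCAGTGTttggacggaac
The sites matched at 27 of 30 bases, and the differences, FTH1 base first and counted from 1 at the 5′ end, were T2C, C5T and C19T. The 339-base 5′ UTR of the HMOX1 message had 0 matches. The motif is short, and 2667 of 18856 protein-coding genes (14.1%) held it in an annotated 5′ UTR, so a match alone does not mark a hairpin.

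All 3 genes were higher in V, FTH1 and HMOX1 by much more than FTL. In bulk RNA, fewer cells of a type and less RNA per cell cannot be told apart. In the authors' deposited table FTH1 had a mean of 6511 normalised counts and a log2 fold change of -4.35 ± 0.10 (SE), with a 95% interval of -4.54 to -4.16. The derived levels were 609 normalised counts in C and 12412 in V, a 20.4-fold higher level in V. By its mean, FTH1 ranked 18 of the 6018 rows of the authors' deposited table, and by the absolute Wald statistic it ranked 9.

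HMOX1, the heme-degrading enzyme, had a mean of 1083 normalised counts and a log2 fold change of -4.06 ± 0.12 (SE) in the authors' deposited table, with an interval of -4.28 to -3.83. Its derived levels were 123 normalised counts in C and 2044 in V, 16.6-fold higher in V. The intervals of FTH1 and HMOX1 overlapped. FTL, the light chain, had a mean of 1555 and a log2 fold change of -1.78 ± 0.09 (SE) in the authors' deposited table, with an interval of -1.96 to -1.59. Its derived levels were 703 normalised counts in C and 2408 in V, 3.42-fold higher in V. The FTL interval lay apart from those of FTH1 and HMOX1, and the log2 fold change of FTH1 minus that of FTL was -2.57. The difference itself was not tested, since the fold changes come from the same libraries and their covariance is not given.

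**Figure D1:**
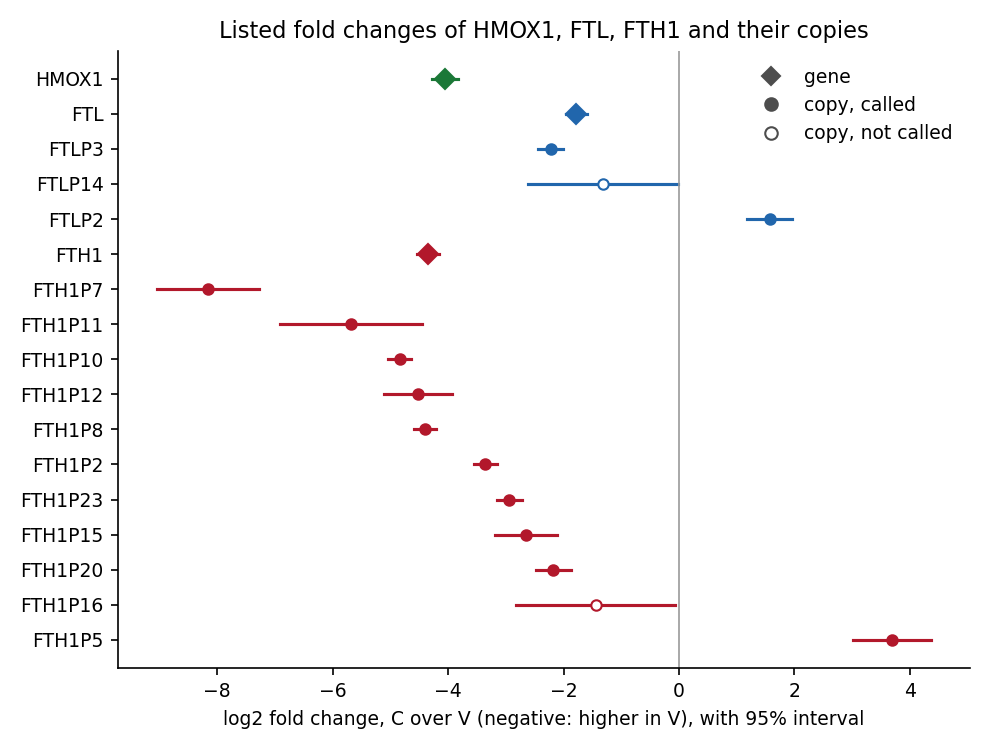
Log2 fold change of C over V with its 95% interval (x axis) for HMOX1, FTL, FTH1 (diamonds) and the listed copies of each ferritin gene (circles, open where not called), one per row. HMOX1, FTL and FTH1 lie left of 0, as do all copies except FTLP2 at 1.58 and FTH1P5 at 3.70.

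All 3 genes were called, where 89.4% of all listed genes and 92.6% of listed protein-coding genes were called in the authors' deposited table. Called and higher in V were 61.0% of its protein-coding genes, and called and higher in C were 31.6%. Nothing is read from the members' count, because the table is a selected list: the smallest absolute log2 fold change in the authors' deposited table is 1.20 and the largest p is 0.05. Among the 2736 called protein-coding genes, 409 (14.9%) had a log2 fold change at or below that of FTH1, 477 (17.4%) at or below that of HMOX1 and 1184 (43.3%) at or below that of FTL. Their median log2 fold change was -1.55 in the authors' deposited table, close to that of FTL. The median standard error of the 250 called genes with a mean of at least 1000 was 0.09, so the errors of these 3 abundant genes are ordinary for their level.

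**Figure D2:**
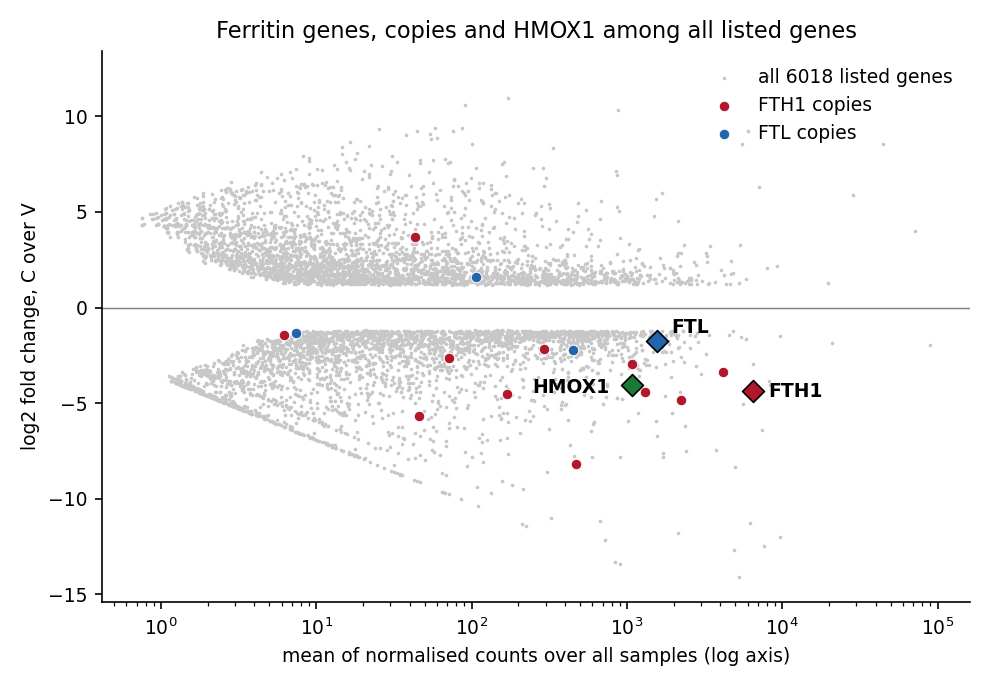
Log2 fold change of C over V (y axis) against the mean of normalised counts (x axis, log) for all 6018 listed genes in grey, with FTH1, FTL and HMOX1 as labelled diamonds and ferritin copies as coloured circles. The empty band around 0 is the table's own limit at an absolute log2 fold change of 1.20, and FTH1, at a mean of 6511, lies among the most abundant rows.

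In reads counted for the genes alone, the order of the 3 genes by level differed between C and V. Per kilobase of the main message, the derived level in C was 495 for FTH1, 801 for FTL and 67.5 for HMOX1. In V the derived level per kilobase was 10100 for FTH1, 2742 for FTL and 1122 for HMOX1. The ratio of FTH1 to FTL per kilobase was thus 0.62 in C and 3.68 in V. With the union of all annotated exons as the length, a choice made after the values were seen, the ratio was 0.375 in C and 2.23 in V. HMOX1 was the lowest of the 3 on both sides. These are levels of reads counted for the genes themselves, and reads counted for the copies are not in them. With the listed copies added and no division by length, FTH1 was above FTL in C as well, at 2094 against 1024 normalised counts.

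**Figure D3:**
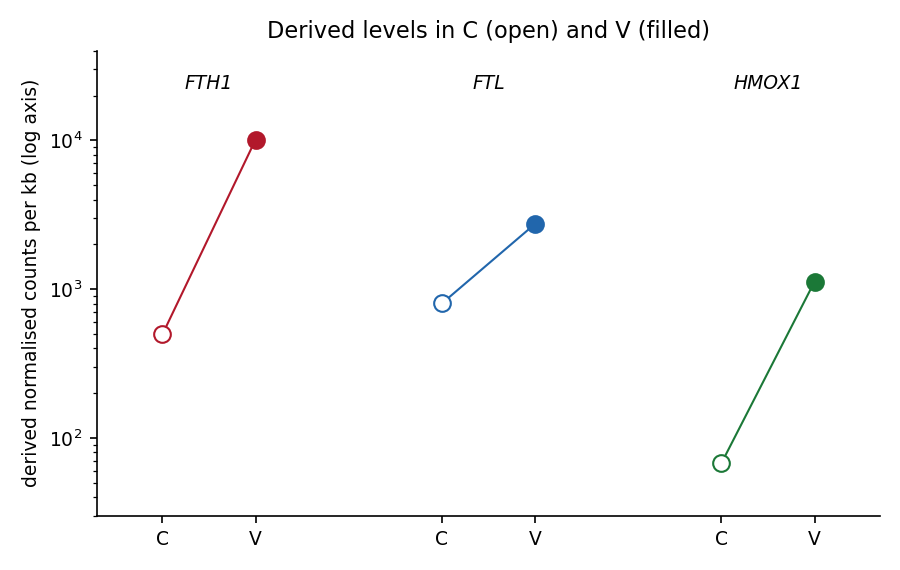
Derived normalised counts per kilobase of the main message (y axis, log) in C (open, left of each pair) and V (filled) for FTH1, FTL and HMOX1. Reads counted for the copies are not included. FTL is the highest of the 3 in C at 801, and FTH1 is the highest in V at 10100. The points are derived from the authors' means and have no error bars.

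FTH1 has many processed pseudogenes, DNA copies of its spliced message inserted elsewhere in the genome, and reads as short as 50 bases can match several of them. Of the 25 FTH1 copies in GENCODE release 29, 11 were listed and 10 called. Of these 10, the authors' deposited table gave 9 as higher in V and 1, FTH1P5, as higher in C. Among all 1491 listed processed pseudogenes of the authors' deposited table, 91.7% were called: 26.8% higher in V and 64.9% higher in C. The median log2 fold change of the 10 called FTH1 copies was -3.88, against 2.15 for all 1367 called processed pseudogenes in the authors' deposited table. This comparison is descriptive, since the copies are not independent of FTH1 or of each other.

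The 4 copies with the most reads were all higher in V, and the interval of 1 of them, FTH1P8, held the FTH1 value. FTH1P2, on chromosome 1 at 228687415 to 228687826, had a mean of 4167 and a log2 fold change of -3.36 ± 0.10 (SE) in the authors' deposited table. Its annotated length is 412 bases, and per kilobase its derived level was 1799 in C and 18427 in V, above that of FTH1 itself on both sides. FTH1P10, on chromosome 5, followed with a mean of 2223 and a log2 fold change of -4.84 ± 0.10 in the authors' deposited table. FTH1P8, on the X chromosome, had a mean of 1300 and a log2 fold change of -4.40 ± 0.10 in the authors' deposited table, and FTH1P23, on chromosome 3, a mean of 1075 and a log2 fold change of -2.94 ± 0.11. These 4 copies each had a mean above 1000, in the range of functional genes such as HMOX1.

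The remaining called copies had fewer reads. FTH1P7 had the log2 fold change farthest from 0 among the copies, -8.16 ± 0.45 in the authors' deposited table, with derived levels of 3.25 normalised counts in C and 931 in V. FTH1P11 followed at -5.69 ± 0.63 in the authors' deposited table, with 1.76 in C and 90.5 in V. With so few counts in C, the sizes of both are poorly determined. FTH1P12 (-4.53 ± 0.30), FTH1P15 (-2.65 ± 0.27) and FTH1P20 (-2.18 ± 0.15) also lay toward V in the authors' deposited table. FTH1P16 was listed at -1.44 ± 0.70 in the authors' deposited table with a mean of 6.20 and an adjusted p of 0.084, and was not called.

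FTH1P5, on chromosome 6 at 50912712 to 50913256, went the other way at 3.70 ± 0.34 in the authors' deposited table. Its derived levels were 80.4 normalised counts in C and 6.21 in V. Of the 10 called copies, 2 had a 95% interval that held the FTH1 value, 3 lay farther toward V and 5 lay closer to 0 or beyond it.

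Over the whole main message, 477 of the 1180 windows of 50 bases in FTH1 (40.4%) also occurred exactly in at least 1 annotated copy. The same held for 152 of 829 windows (18.3%) in FTL. Counted separately and with some overlap, 735 FTH1 windows lay in transcripts of BEST1, a chloride channel gene on the opposite strand that overlaps FTH1. Windows found in no other gene were 251 of 1180 in FTH1 (21.3%), 677 of 829 in FTL (81.7%) and 1762 of 1773 in HMOX1 (99.4%). Of the 3 genes, HMOX1 had the largest share of sequence of its own.

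Listed and unlisted FTH1 copies differed in how many windows they shared with the gene. All 11 listed FTH1 copies held FTH1 windows, from 29 in FTH1P15 to 246 in FTH1P10. Of the 14 copies not listed, 3 held any, with a highest count of 101 in FTH1P3, and 11 held 0. FTH1P5 held 138 windows, more than several copies that were higher in V. Identity to the FTH1 message ran from 77.9% for FTH1P15 to 97.5% for FTH1P8. No source used here states the counting method or what it did with reads that match several places. How many reads of FTH1 origin stand in the counts of the copies was not tested.

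**Figure D4:**
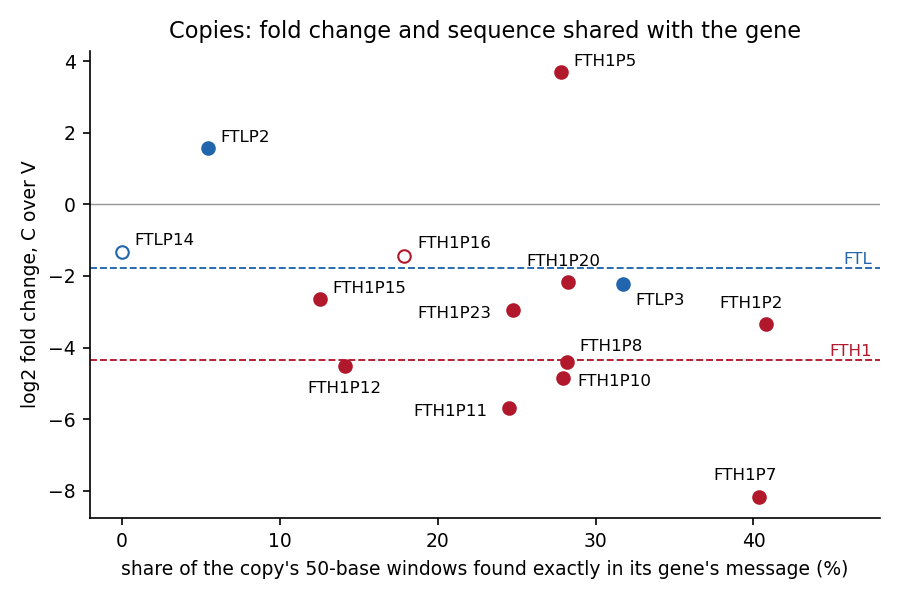
Log2 fold change of C over V (y axis) against the share of a copy's 50-base windows that occur exactly in the message of its gene (x axis, percent), for FTH1 copies in red and FTL copies in blue, open where not called; dashed lines mark FTH1 and FTL. FTH1P5 holds 27.8% of shared windows and lies at 3.70, while FTH1P8, with 28.2%, lies at -4.40 beside FTH1.

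A sum over the gene and its listed copies does not depend on how reads were divided among those rows. Over FTH1 and its 11 listed copies the derived levels summed to 2094 normalised counts in C and 30648 in V, a log2 ratio of -3.87 that is 14.6-fold higher in V. FTH1 itself made up 29.1% of this sum in C and 40.5% in V. The copies alone summed to 1485 in C and 18235 in V. For FTL and its 3 listed copies the sums were 1024 in C and 3208 in V, a log2 ratio of -1.65, and FTL made up 68.6% of the sum in C and 75.1% in V. In these counts, which are not divided by length, the FTH1 sum over 12 rows was larger than the FTL sum over 4 rows on both sides. In the same unit FTH1 alone was below FTL alone in C, at 609 against 703. The sums add unequal numbers of rows, so their order does not show which gene has more message. The sums leave out the 14 FTH1 copies and 13 FTL copies that were not listed, and every listed copy had passed the table's own fold limit, so the sums are a description and no check on the values of the genes.

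The FTL copies did not move together. Of 16 in GENCODE release 29, 3 were listed and 2 called. FTLP3, on chromosome 20, was higher in V at -2.22 ± 0.11 in the authors' deposited table, with derived levels of 158 normalised counts in C and 736 in V. FTLP2, on the X chromosome, was higher in C at 1.58 ± 0.20 in the authors' deposited table, with 159 in C and 53.4 in V. FTLP14 was listed at -1.32 ± 0.66 in the authors' deposited table with a mean of 7.39 and was not called. FTLP3 matched FTL at 97.7% and held 152 FTL windows, while FTLP2 matched at 93.9% and held 26. As an illustration, coding bases 452 to 511 of FTL (GRCh38 chr19:48966659-48966718, plus) are given with FTLP3 (chr20:4024368-4024427, plus) and FTLP2 (chrX:30630749-30630808, plus). This is the 60-base stretch within 1 exon in which FTLP2 has the most differences and, among such stretches, FTLP3 the fewest. FTLP2 was put first in this search because it is the copy higher in C. The numbers of differences follow from that choice and do not measure how closely the copies follow FTL. The letters come from the GENCODE release 29 transcripts, and capitals mark differences from FTL.
FTL: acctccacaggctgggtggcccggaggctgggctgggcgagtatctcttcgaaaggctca
FTLP3: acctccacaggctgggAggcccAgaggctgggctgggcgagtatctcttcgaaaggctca
FTLP2: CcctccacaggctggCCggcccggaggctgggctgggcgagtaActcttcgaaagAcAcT
FTLP3 had 2 differences in this stretch and FTLP2 had 7. FTLP14, with 83.1% identity and 0 shared windows, is the most diverged of the 3 listed copies.

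Genes that lie beside the members were not all shifted the same way. MCM5, a subunit of the replicative helicase that lies 5849 bases from HMOX1 on the same strand, was higher in C at 1.85 ± 0.09 in the authors' deposited table. Of 4 other protein-coding genes within 100 kb of FTH1, 3 were listed: the fatty acid desaturase FADS2 was higher in C (1.23 ± 0.08) while FADS3 (-1.51 ± 0.17) and BEST1 (-2.01 ± 0.25) lay toward V in the authors' deposited table. BEST1 had derived levels of 23.7 normalised counts in C and 95.3 in V, far below FTH1; whether counting used the strand is not given, so reads of the overlapping pair cannot be told apart. Of 19 protein-coding genes near FTL, 2 were listed, both toward V in the authors' deposited table: PPP1R15A (-3.75 ± 0.19), which directs dephosphorylation of eIF2α, and PLEKHA4 (-2.46 ± 0.34). Some copies also lay in genes shifted the opposite way. FTH1P20 overlaps SCHLAP1 on the other strand, a prostate cancer noncoding RNA that was higher in C at 2.73 ± 0.22 in the authors' deposited table, and FTH1P23 lies within GXYLT2, higher in C at 1.97 ± 0.66.

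Of 10 regulators of the NRF2 and BACH1 axis, 4 were listed and all 4 were called, where 92.6% of all listed protein-coding genes were. All 4 were higher in V. Of all 2736 called protein-coding genes in the authors' deposited table, 65.9% were higher in V. The median log2 fold change of the 4 was -2.22, against -1.55 for all called protein-coding genes in the authors' deposited table. SQSTM1, the autophagy receptor that can displace NRF2 from KEAP1, stood at -2.95 ± 0.08 in the authors' deposited table, with derived levels of 1486 normalised counts in C and 11447 in V. The related factor NFE2L1 (-1.50 ± 0.07) and the small MAF partners MAFG (-1.25 ± 0.11) and MAFF (-3.74 ± 0.34) also lay toward V in the authors' deposited table. NFE2L2, which encodes NRF2, KEAP1 and BACH1 were not listed, which leaves their values unknown, and the table does not show why a gene is missing from it.

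Of 29 other NRF2 target genes, 14 were listed and all 14 were called, where 92.6% of all listed protein-coding genes were. All 14 lay toward V, where 65.9% of all called protein-coding genes did. Their median log2 fold change was -1.70, against -1.55 for all called protein-coding genes in the authors' deposited table. The list was drawn up with earlier results of this table known, and some of its genes were in them. Among those with the smallest listed p were the pentose phosphate enzyme PGD (-1.76 ± 0.08), thioredoxin reductase TXNRD1 (-1.23 ± 0.07), malic enzyme ME1 (-1.64 ± 0.09) and UGDH (-1.38 ± 0.08), which makes UDP-glucuronate, in the authors' deposited table. Their derived levels were 842 and 2854 normalised counts for PGD in C and V, and 2892 and 6763 for TXNRD1 in C and V. These 4 log2 fold changes lay between -1.76 and -1.23, nearer to FTL than to FTH1 or HMOX1. The 4 were picked by p and do not stand for all 14, some of which lay farther toward V than FTH1. The called targets farthest from 0 were AKR1C2 and AKR1C1, aldo-keto reductases with derived levels below 1 normalised count in C, and reads of such near-identical paralogs can be split. NQO1, GCLC, TXN and 12 more of these genes were not listed in the authors' deposited table. Stricter limits, a log2 fold change of at least 2 in size, a mean of at least 100 or an adjusted p under 0.01, called 48.3%, 42.1% and 82.8% of all protein-coding genes in the authors' deposited table, and for processed pseudogenes the adjusted p under 0.01 called 78.2% and a mean of at least 10 called 60.8%.

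Genes of heme and iron traffic were called on both sides, and every one that was listed was called, where 92.6% of all listed protein-coding genes were. For heme synthesis, 0 of 9 genes were listed in the authors' DESeq2 table, ALAS1 and FECH included, so no p is known for them, adjusted or unadjusted, and no other tool was run. Of 11 genes of heme breakdown and transport, 1 was called: FLVCR2, a transporter of the heme exporter family, at -2.82 ± 0.20 in the authors' deposited table. The constitutive enzyme HMOX2 and the biliverdin reductases BLVRA and BLVRB were not listed. Of 22 genes of iron uptake and export, 4 were called. The ferroxidase CP (-8.62 ± 0.65) and its membrane-bound relative HEPH (-4.79 ± 1.32) lay toward V in the authors' deposited table, and the metal importer SLC39A8 (1.43 ± 0.12) and transferrin, TF (3.10 ± 1.06), were higher in C. The derived C levels of CP and HEPH were 1.56 and 0.34 normalised counts, so the sizes of their fold changes are poorly determined. TFRC, the transferrin receptor, SLC40A1, the iron exporter, and the iron regulatory protein genes ACO1 and IREB2 were not listed. Of 8 genes of ferritin handling and iron regulation, 1 was called, the hypoxia factor EPAS1 (-3.60 ± 0.37 in the authors' deposited table), while NCOA4, the receptor that delivers ferritin to autophagy, was not listed.

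Other iron-linked groups were small. Every gene of these groups that was listed was called, where 92.6% of all listed protein-coding genes were. Of all called protein-coding genes, 65.9% were higher in V. Genes of these groups that were not listed have no known value. Of 15 ferroptosis genes, 5 were listed and called, 4 higher in V and 1 higher in C. The polyamine enzyme SAT1 stood at -3.23 ± 0.09, the coenzyme Q reductase AIFM2 at -3.35 ± 0.37, PTGS2 at -4.68 ± 0.90 and ALOX5 at -2.76 ± 0.85 in the authors' deposited table, and DHODH, a mitochondrial enzyme of pyrimidine synthesis, at 1.26 ± 0.17. Of 13 metallothionein and zinc genes, 2 were listed and called, the zinc exporter SLC30A1 (-1.31 ± 0.15) and MT1F (-1.72 ± 0.68), both toward V in the authors' deposited table. Of 12 genes of iron-sulfur cluster assembly, 1 was listed and called, the cochaperone HSCB (-1.29 ± 0.22 in the authors' deposited table).

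**Figure D5:**
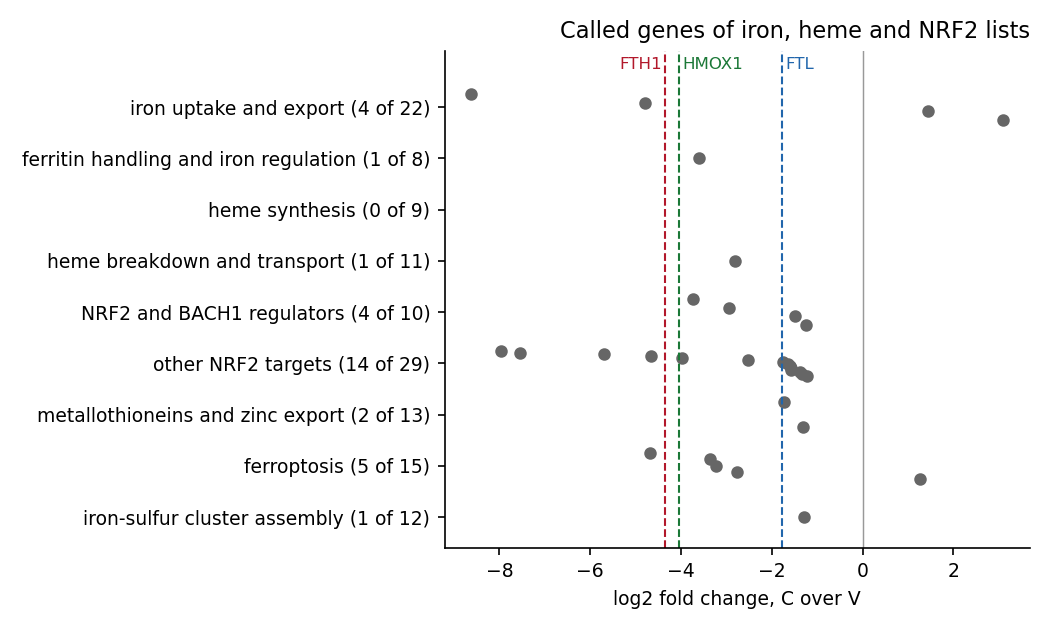
Log2 fold change of C over V (x axis) of the called genes in each iron, heme, NRF2 and ferroptosis list (rows, with the number called of the number in the list); dashed lines mark FTH1, HMOX1 and FTL. All 14 called NRF2 targets lie left of 0, and heme synthesis has 0 called genes.

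Of genes ranked by fold change alone, the abundant protein-coding genes (mean of at least 1000) nearest to FTH1 in this 1 comparison were PARP14 (-4.39), APOL2 (-4.62), GDF15 (-4.07), B2M (-3.93) and ZC3HAV1 (-3.83) in the authors' deposited table. GDF15 was also the nearest to HMOX1, 0.014 away on the log2 scale, followed by B2M, ZC3HAV1, PARP14 and FAM102A (-3.65) in the authors' deposited table. The nearest to FTL were PGD (-1.76), DUSP16 (-1.75), XBP1 (-1.81), QSOX1 (-1.82) and ALDH3A2 (-1.66) in the authors' deposited table.

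Markers of cells rich in ferritin and heme oxygenase were looked at because such cells could add to the signal. For the counts that follow, 92.6% of all listed protein-coding genes were called, and 65.9% of the called ones were higher in V. Of 12 macrophage markers, 5 were listed and 4 called, all 4 higher in V, namely PTPRC (-7.77 ± 1.27), LYZ (-6.11 ± 1.25), FCGR3A (-6.14 ± 1.34) and CD14 (-3.96 ± 1.56) in the authors' deposited table. These 4 also occur in other white blood cells, so they do not point to macrophages in particular. With CD68, the derived levels of the 5 listed markers summed to 1.73 normalised counts in C and 77.9 in V. CD163, CSF1R, MARCO, VSIG4, C1QA, C1QB and AIF1 were not listed. How much such cells add to the counts of the ferritin genes and HMOX1 was not tested. Of 11 erythroid markers, HBA1 and HBA2 were listed, at 3.35 ± 1.41 and 2.79 ± 1.24 in the authors' deposited table, and HBA1 was called, higher in C; these are near-identical genes whose reads can be split. Of 12 luminal prostate markers, 3 were listed and called: KLK3 (2.17 ± 0.07) and KLK2 (2.59 ± 0.08), androgen-induced secreted proteases, were higher in C and the keratin KRT8 (-1.45 ± 0.10) lay toward V in the authors' deposited table. The prostate identity of the line is visible in the derived levels of KLK3, 15170 normalised counts in C and 3363 in V.

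The RefSeq promoter table (GRCh38.p14, 250 bases before to 50 after the gene start) matched 1 of the 3 genes, FTL. FTL had 0 matches to each of 5 motifs searched on both strands of that window. The antioxidant response core TGACNNNGC occurred in 13.4% of all 35116 promoters of that length. The looser TGANNNNGC, which also takes in every match of the stricter core, occurred in 41.8%. The E-box CACGTG occurred in 7.26%. The AP-1 site TGACTCA occurred in 4.95%. The TATA box letters TATAAA occurred in 11.5%. An absent match says only that these letters do not occur in this window.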

How the data were processed

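Per the labels, 3 libraries of each line were sequenced; the deposited table is the authors' DESeq2 comparison of C with V, per the file headers. Per the file headers, the mean of normalised counts (a signal) is taken over all samples. Per the file headers, log2 fold changes are maximum likelihood estimates for C over V; the standard error and the Wald statistic are deposited as score columns. The labels name both the TruSeq V2 RNA-Seq kit and the TruSeq Stranded Total RNA kit; the split between them is not stated. The p-value and Benjamini-Hochberg adjusted p-value are the authors', per the file headers; 4 adjusted p-values listed as 0 beside a p near 0.05 were read as not given. FastQC and Cufflinks 2.2.1 appear in the submitters' processing notes. For the aligner, counter, build and strand handling: not given in the sources used here.

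Intervals are the listed estimate ± 1.96 standard errors. Levels in C and V were derived assuming equally many libraries on each side. Of the 6018 identifiers, 5935 were in GENCODE release 29 (GRCh38), which need not be the authors' annotation. Its transcripts gave windows of 50 bases, matched exactly on both strands, and alignments (edlib 1.3.9.post1, python 3.11.15). The derived levels and the window matching were checked on simulated data, and the alignments were not. The members and the 12 gene lists were chosen with earlier results of these data known. Named were all members, copies called or with a mean of at least 10, up to 5 called genes per list by smallest p (1 of them and a sequence comparison are not reported here), and the 5 nearest genes by fold change; FTH1P16, FTLP14, HBA2, neighbouring genes and genes named as not listed were added after their values were seen. The library-level fit foreseen in the design could not be made.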

Additional observations from a re-analysis of the deposited data

How the results depend on the processing

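No paired analysis was possible because the table has no column per library; for the same reason leaving out each library was not run. No alternative run could test the direction of HMOX1: the interval end of a called gene and a positive shift taken from a negative value both keep the sign by construction. With listed copies summed, the log2 fold change was -3.87 for FTH1 and -1.65 for FTL. At the end of the 95% interval nearest to 0 it was -4.16 for FTH1, -1.59 for FTL and -3.83 for HMOX1. Relative to the median of all listed genes, 1.26, which is the median of a selected list, it was -5.61, -3.04 and -5.32 in the same order. The summed ratios, which have no error of their own, moved by less than the listed standard error of FTH1 or FTL alone with called copies only and with the mean weighted 2 to 3 or 3 to 2, and the counts of called copies were 10 and 2 at an adjusted p under 0.01 and at a mean of at least 10. At an adjusted p under 0.01, 1 metallothionein or zinc gene and 0 erythroid markers were called. With the log2 fold change at least 2 in size, 2 NRF2 and BACH1 regulators, 6 other NRF2 targets, 0 metallothionein or zinc genes and 0 iron-sulfur genes were called. At a mean of at least 100, 2 genes of iron uptake and export, 0 of ferritin handling, 8 other NRF2 targets, 1 metallothionein or zinc gene, 2 ferroptosis genes, 0 iron-sulfur genes, 0 macrophage markers and 0 erythroid markers were called. These counts are smaller because fewer genes pass. Of all listed protein-coding genes, 82.8% were called at an adjusted p under 0.01. With the log2 fold change at least 2 in size 48.3% were called, and at a mean of at least 100 it was 42.1%. Of listed processed pseudogenes, 78.2% were called at an adjusted p under 0.01 and 60.8% at a mean of at least 10. The ratio of FTH1 to FTL per kilobase was 0.375 in C and 2.23 in V with union exon length, because annotated exons of FTH1 exceed its main message by more than those of FTL do. Without library values, depth limits could not be assessed beyond the listed standard errors.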
